A study of Mus musculus with 7 samples.

Results

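The epithelial genes followed here are 10 of the 25655 in the count table, measured in injured mouse retina: the keratins Krt5, Krt7, Krt8, Krt14, Krt18 and Krt19, the E-cadherin gene Cdh1, the integrin genes Itga6 and Itgb4, and the mesothelin gene Msln. They were taken from the table by name, but the names had been selected on the counts and CPM (defined below) of these same libraries, with low values of several of them in the Tppp3 group already known, so the differences between the groups are given as a description. All retinas came from wild-type C57BL/6 mice and all had been injured by crush of the optic nerve, 2 days before collection. The control AAV2 group had received the vector the labels call CMV-control-AAV2, and the Tppp3 AAV2 group an AAV2 vector for overexpression of Tppp3, a gene of tubulin polymerization. Neither an uninjured retina nor one without a vector is among the samples, and the labels do not give the age of the mice or say whether each library came from another animal, so p-values may measure technical spread only. RNA of the whole retina was sequenced in bulk, so fewer cells of a type and less RNA per cell cannot be told apart. In each group 3 libraries were analysed (n = 3).

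Keratins are the intermediate filaments of epithelial cells. They assemble only as pairs of a type II chain (here Krt5, Krt7 and Krt8) with a type I chain (Krt14, Krt18 and Krt19); Krt8 with Krt18 is the pair of simple epithelia, and Krt5 with Krt14 that of the basal layer of stratified epithelia. The integrin chains encoded by Itga6 and Itgb4 form the hemidesmosome receptor that ties keratin filaments to laminin, E-cadherin joins neighbouring epithelial cells at adherens junctions, and mesothelin is a surface protein best known from mesothelium. The retina's neurons use other filaments, while the pigment epithelium and the epithelia at the front of the eye are the keratin-bearing tissues nearest to it.

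Library depth bears on every value here. The control libraries held 11325596, 16218074 and 10961443 gene counts (replicates 1, 2 and 3) and the Tppp3 libraries 19961359, 21843892 and 21391585, so that all Tppp3 libraries were deeper than all control libraries. Tppp3 itself stood at 23.0 ± 4.68 CPM (raw counts scaled to a common library size, after TMM, a between-library normalization) in the controls, against 44.0 ± 8.81 in the Tppp3 group (SD, n = 3 per group), a log2 fold change of 0.94 (edgeR adjusted p = 0.639, and 1.225e-05 in DESeq2's Wald test) with no overlap of the libraries. Rod genes, the defining markers of retina, summed to between 50430 and 63960 CPM in the 6 libraries. In edgeR's quasi-likelihood test, 14750 genes had enough counts, and 8 of the 10 epithelial genes were among them. Krt5 and Krt19 were too low.

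Of the 10 genes, 5 had an entry in RefSeq's table of start regions (build GRCm38.p6, while the counts were made on GRCm39). The 150 bases upstream of the annotated start are shown for the keratins whose CPM was lower in all Tppp3 libraries, Krt7, Krt8 and Krt14, and for Krt18, whose groups overlapped. They lie at chr15:101412253-101412402 on the plus strand, chr15:102004343-102004492 on the minus strand, chr11:100206031-100206180 on the minus strand and chr15:102028066-102028215 on the plus strand, and are written 5′ to 3′ along the gene. Krt7, Krt8 and Krt18 lie in the keratin cluster of chromosome 15, where Krt8 and Krt18 are neighbours among protein-coding genes, and Krt14 lies on chromosome 11. Capitals mark matches, on either strand, to a TATA-like run (ATAAA), the GC box (GGGCGG) and the E-box (CANNTG). The AP-1 motif (TGANTCA) and the grainyhead motif (AACCNGTT) were also searched.
Krt7: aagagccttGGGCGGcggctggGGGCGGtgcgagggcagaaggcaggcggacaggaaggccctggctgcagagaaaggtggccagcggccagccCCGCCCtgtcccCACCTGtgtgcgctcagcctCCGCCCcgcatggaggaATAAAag
Krt8: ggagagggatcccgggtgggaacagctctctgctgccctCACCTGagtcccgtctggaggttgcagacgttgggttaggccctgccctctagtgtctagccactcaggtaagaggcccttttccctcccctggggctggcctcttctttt
Krt14: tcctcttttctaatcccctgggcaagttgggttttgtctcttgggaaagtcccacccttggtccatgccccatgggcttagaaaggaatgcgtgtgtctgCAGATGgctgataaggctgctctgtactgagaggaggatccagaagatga
Krt18: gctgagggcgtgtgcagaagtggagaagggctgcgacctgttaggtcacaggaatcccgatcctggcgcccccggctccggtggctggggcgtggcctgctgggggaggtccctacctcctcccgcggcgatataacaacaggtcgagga
The Krt7 window held 4 GC boxes and was 70.0% G and C. Krt8, Krt14 and Krt18 held no GC box match. An E-box match stood in the windows of Krt7, Krt8 and Krt14, and none in that of Krt18. Over all 32851 windows of this length, 28.6% held a GC box, 47.7% an E-box, 24.1% the TATA-like run, 4.24% the AP-1 motif and 1.05% the grainyhead motif. Neither of the last 2 motifs occurred in the windows shown. No motif was shared by the 3 lower keratins beyond the E-box, which is common among all windows.

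Among the type II keratins, Krt7 and Krt8 were lower with Tppp3 AAV2. Krt7, a keratin of ducts and other simple epithelia, stood at 19.2, 17.4 and 21.8 CPM in control replicates 1, 2 and 3 and at 10.1, 9.56 and 10.5 in Tppp3 replicates 1, 2 and 3. The lowest control lay far above the highest Tppp3 library. The log2 fold change of Krt7 was -0.95 ± 0.11 (SE), with an adjusted p of 0.0321 in edgeR's quasi-likelihood test, and it was the only member called. That is 1 of 8 tested members, against 0.0136% of all tested genes called lower (0% were called higher), and since this same contrast was known when the genes were listed, nothing is read from the share. The Krt7 call was lost without any one of the 6 libraries (edgeR adjusted p from 0.0625 to 0.303), with limma's voom (0.184), with sex as a covariate (0.128, where 1 library in each group held Y-linked counts), after thinning to equal depth (0.121) and with log2 library total as a covariate (0.9999, log2 fold change -0.62). Krt8, the type II chain of simple epithelia, stood at 21.9, 17.95 and 23.7 CPM in the controls and at 12.3, 11.1 and 13.3 in the Tppp3 libraries. Its groups did not overlap either, and it had a log2 fold change of -0.79 ± 0.12 (edgeR adjusted p = 0.115). Both genes overlap a non-coding gene on the opposite strand in GENCODE M21, as do Itgb4, Itga6 and, with a microRNA gene, Krt5, and since the libraries do not mark strand, reads of such a partner cannot be told apart from theirs.

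Krt5, the type II chain of basal epithelial cells, was near 0, with raw counts of 0, 2 and 0 in the controls, against 7, 1 and 38 in the Tppp3 libraries, so that Tppp3 replicate 3 held nearly all of them. A count of 0 allows up to 0.265 CPM in control replicate 1 and 0.271 CPM in control replicate 3 (3 counts, counting error only).

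Among the type I keratins, Krt14 was lower in CPM, while Krt18 overlapped between the groups. Krt14, the usual partner of Krt5, stood at 13.7, 10.02 and 14.2 CPM in the controls and at 5.64, 6.18 and 9.83 in the Tppp3 libraries. The highest Tppp3 library came close to the lowest control. The log2 fold change of Krt14 was -0.80 ± 0.23 (edgeR adjusted p = 0.639), and it was -1.09 without Tppp3 replicate 3. Krt18, the partner of Krt8, stood at 57.1, 56.55 and 64.2 CPM in the controls and at 44.9, 69.0 and 53.8 in the Tppp3 libraries. Both the lowest and the highest Krt18 value belonged to the Tppp3 group. The log2 fold change of Krt18 was -0.083, with a 95% interval from -0.47 to 0.31 (edgeR adjusted p = 0.945), and it turned to 0.048 without Tppp3 replicate 1. Krt19, a type I keratin of simple and ductal epithelia, had raw counts of 0, 0 and 0 in the controls, against 1, 1 and 21 in the Tppp3 libraries.

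The RNAs of the keratin pairs were therefore not present in matched amounts. Per kilobase of the longest protein-coding transcript (GENCODE M21), Krt18 stood at 41.3 ± 2.96 CPM per kb in the controls and Krt8 at 10.8 ± 1.5 (SD, n = 3). The raw count ratio of Krt8 to Krt18, which does not depend on scaling to depth, was 0.384, 0.317 and 0.369 in the controls, against 0.274, 0.162 and 0.247 in the Tppp3 libraries, with no overlap. This ratio carries the low Krt8 of the Tppp3 group, the contrast on which the genes were selected, so nothing is read from that. Krt14 stood at 7.44 ± 1.34 CPM per kb in the controls, while Krt5 stood at 0.0187 ± 0.0323. Krt14 and Krt5 therefore differed widely in level in every control library.

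Tppp3 replicate 3 stood apart in its keratins. Beside its Krt5 and Krt19 counts it held 30 counts of Krt6a, 23 of Krt17 and 10 of Krt15, which stratified epithelia and hair follicles are known to express. The other 5 libraries held between 0 and 4 counts of Krt6a, 0 of Krt17 and between 0 and 2 of Krt15. These 3 genes were picked out after their counts were seen. Krt6b and Krt16, also keratins of stratified epithelia and hair follicles, did not set Tppp3 replicate 3 apart: Krt6b had 6 counts there and 7 in Tppp3 replicate 1, and Krt16 had 4 there, 6 in control replicate 2 and 5 in Tppp3 replicate 1. Krt14 in Tppp3 replicate 3 had 207 counts, against 111 to 163 in the other libraries. Other keratins of the cornea and conjunctiva stayed low in Tppp3 replicate 3, with 9 counts of Krt12 (1 to 10 elsewhere), 3 of Krt13 and 0 of Krt4.

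**Figure D1:**
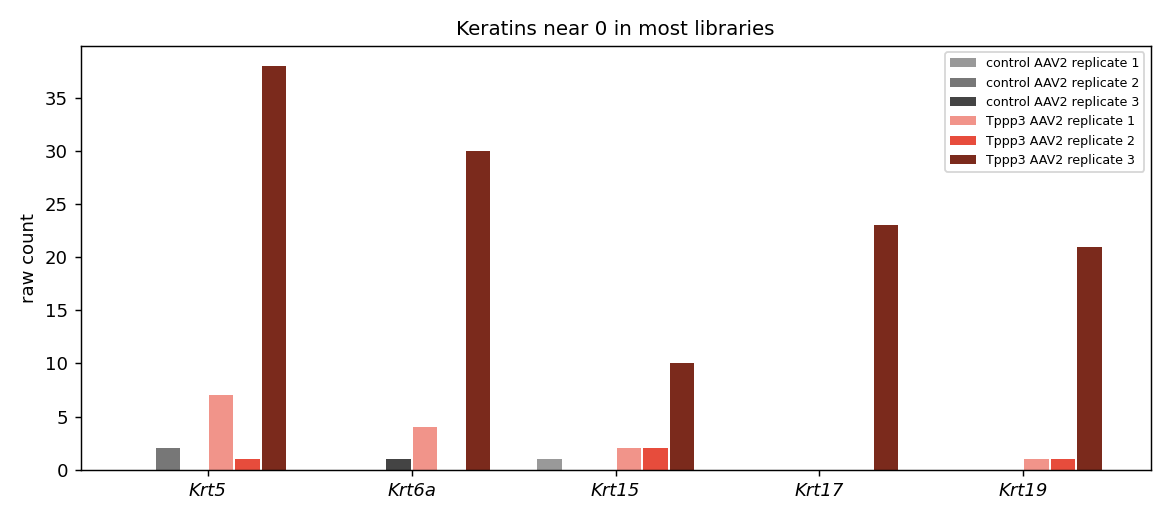
Raw counts (vertical axis) of 5 keratin genes in each of the 6 libraries (bars; grey for control AAV2, red for Tppp3 AAV2). Tppp3 replicate 3 holds 38 counts of Krt5, 30 of Krt6a, 10 of Krt15, 23 of Krt17 and 21 of Krt19, and no other library exceeds 7 for any of them.

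The adhesion genes split in the same way as the keratins. Cdh1 stood at 11.8, 9.53 and 13.7 CPM in the controls and at 5.49, 5.64 and 6.27 in the Tppp3 libraries. No Tppp3 library reached the lowest control, and the log2 fold change of Cdh1 was -0.999 ± 0.16 (edgeR adjusted p = 0.115). Itgb4, the beta chain found in hemidesmosomes, stood at 12.02, 11.55 and 12.7 CPM in the controls and at 6.61, 5.68 and 6.36 in the Tppp3 libraries. Within each group its values were close together, and the log2 fold change was -0.96 ± 0.13 (edgeR adjusted p = 0.0650). Itga6, the alpha chain that pairs with the Itgb4 product and also with the beta-1 chain, stood at 11.6, 12.35 and 9.76 CPM in the controls and at 9.96, 11.6 and 8.26 in the Tppp3 libraries. The groups of Itga6 overlapped, with a log2 fold change of -0.18 and a 95% interval from -0.51 to 0.15 (edgeR adjusted p = 0.838).

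The ratio of the integrin chains carries the low Itgb4 of the Tppp3 group, the contrast known when the genes were listed. It is given as a description, and nothing is read from it. The raw count ratio of Itgb4 to Itga6 was 1.04, 0.935 and 1.31 in the controls, against 0.663, 0.490 and 0.770 in the Tppp3 libraries. Every control ratio lay above every Tppp3 ratio. Msln stood at 7.87, 6.39 and 8.32 CPM in the controls and at 3.15, 3.56 and 3.56 in the Tppp3 libraries. The groups did not overlap, and the log2 fold change of Msln, the most negative of the members, was -1.13 ± 0.18 (edgeR adjusted p = 0.115).

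**Figure D2:**
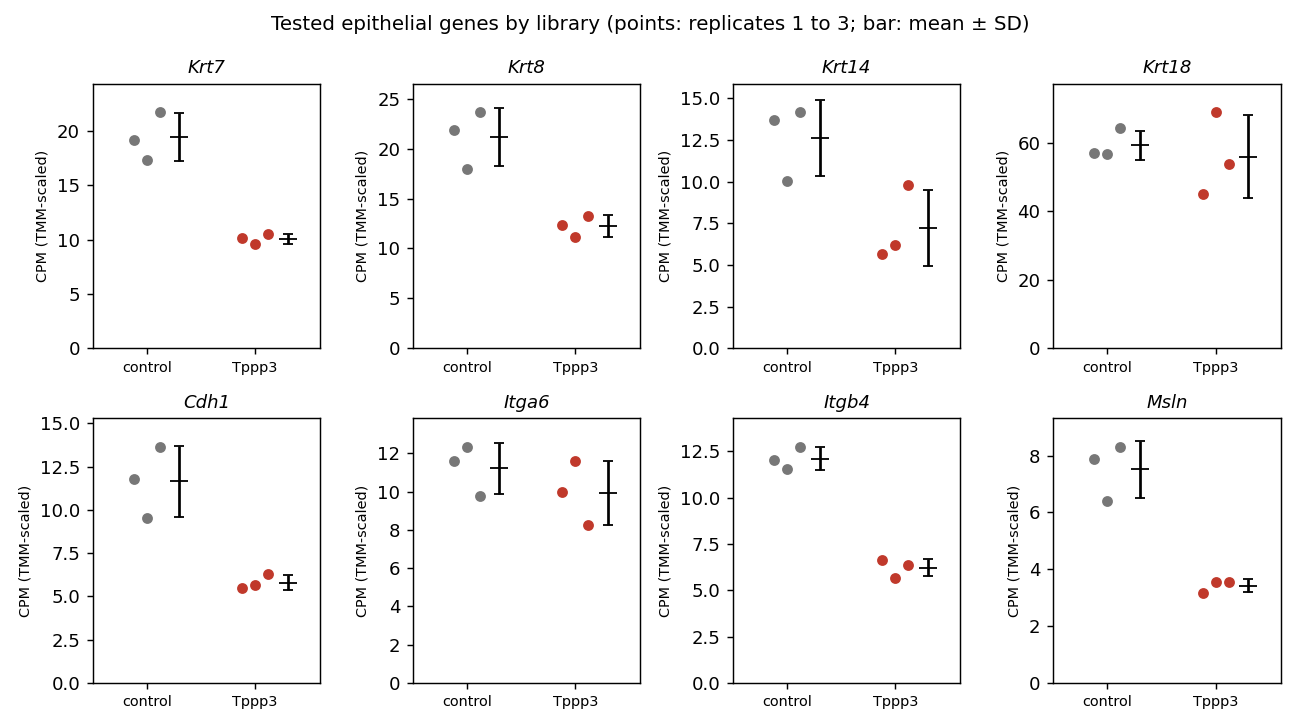
TMM-scaled CPM (vertical axes, from 0) of the 8 tested genes in control AAV2 (grey) and Tppp3 AAV2 (red) libraries; points are replicates 1, 2 and 3 from left to right and the bar is mean ± SD (n = 3 per group). Krt7, Krt8, Krt14, Cdh1, Itgb4 and Msln do not overlap between groups, while Krt18 and Itga6 do.

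In all, 6 of the 8 tested genes were lower in every Tppp3 library than in every control library, against 7.02% of all tested genes, and 0 were higher in every one, against 6.92%. All 8 log2 fold changes were negative, with a median of -0.87 against 0.0030 over all tested genes, where 49.1% were negative. These counts come from the contrast known when the genes were listed, and nothing is read from them. With 3 against 3 libraries an exact permutation test of a single gene cannot go below p = 0.1. DESeq2's Wald test called 5 of the 8 lower and 0 higher (against 0.0882% and 0.0147% of all genes with an adjusted p there), the 5 being Krt7, Krt8, Cdh1, Itgb4 and Msln, and limma's voom called 0 (0% of all tested genes). In edgeR, 6 of the 8 had an unadjusted p under 0.05 on the lower side, against 3.55% of all tested genes, and 0 on the higher side, against 3.67%.

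Per kilobase of transcript, the order of levels in the controls ran from Krt18 (41.3 CPM per kb) through Krt8 (10.8), Krt14 (7.44), Krt7 (4.75) and Msln (3.48) to Cdh1 (2.63), Itga6 (2.61) and Itgb4 (1.95). This order depends on the length taken, which was 4094 bases for Krt7 against 1958 for Krt8, 1698 for Krt14 and 1437 for Krt18. Without division by length, Krt7 (19.45 CPM) stood above Krt14 (12.64 CPM) in the controls. Which transcripts the libraries held was not tested. Cdh1 and Itga6 did not differ beyond their spread (SD 0.466 and 0.309 CPM per kb). In the Tppp3 libraries Krt18 again stood highest, at 38.9 ± 8.48 CPM per kb, followed by Krt8 (6.25), Krt14 (4.25) and Krt7 (2.46), and Itgb4 was the lowest of the 8 tested genes, at 1.00 ± 0.0770. Itga6 (2.31 ± 0.386 CPM per kb) stood above Msln (1.58 ± 0.110) and Cdh1 (1.31 ± 0.0934) there, and did not differ from Krt7 (SD 0.114) beyond the spread.

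The raw counts of 6 of these genes were not higher on average in the deeper Tppp3 libraries than in the controls. Krt7 had 217, 283 and 241 raw counts in the controls, against 199, 212 and 221 in the deeper Tppp3 libraries. Krt8 had 248, 292 and 262 against 242, 247 and 280, and these raw counts overlapped. Cdh1 had 133, 155 and 151 against 108, 125 and 132. Its raw counts, like those of Itgb4 and Msln, were lower in every Tppp3 library although these were sequenced more deeply. Itgb4 had 136, 188 and 141 raw counts against 130, 126 and 134. Msln had 89, 104 and 92 against 62, 79 and 75. Krt14 had 155, 163 and 157 against 111, 137 and 207, and its raw counts overlapped.

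The mean raw count in the Tppp3 group was between 0.758 and 0.959 times that in the controls for these 6 genes, whereas the median over all tested genes was 1.63 and the mean library total was 1.64 times higher. Krt18 (1.56) and Itga6 (1.43) were closer to that median. A mean raw count below that of the controls was found in 0.997% of all tested genes. The coefficient of variation (CV, the SD over the mean) of raw counts over the 6 libraries was 7.72% for Krt8 and 13.1% for Krt7, against 31.6% and 36.2% for their CPM. Over all tested genes the median CV was 30.5% for raw counts and 8.48% for CPM. Raw counts varied less than CPM in 6 of the 8 members and in 3.95% of all tested genes, or 3.01% of those with a mean of at least 1 CPM. Near-equal raw counts in groups of unequal depth are the low CPM of the Tppp3 group in another form, the contrast on which the genes were selected, so nothing is read from these shares either. All libraries were read on 1 lane, and whether reads were assigned across libraries was not tested. For counting error alone, the CV expected from the mean count is 6.18% for Krt8 and 6.61% for Krt7.

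**Figure D3:**
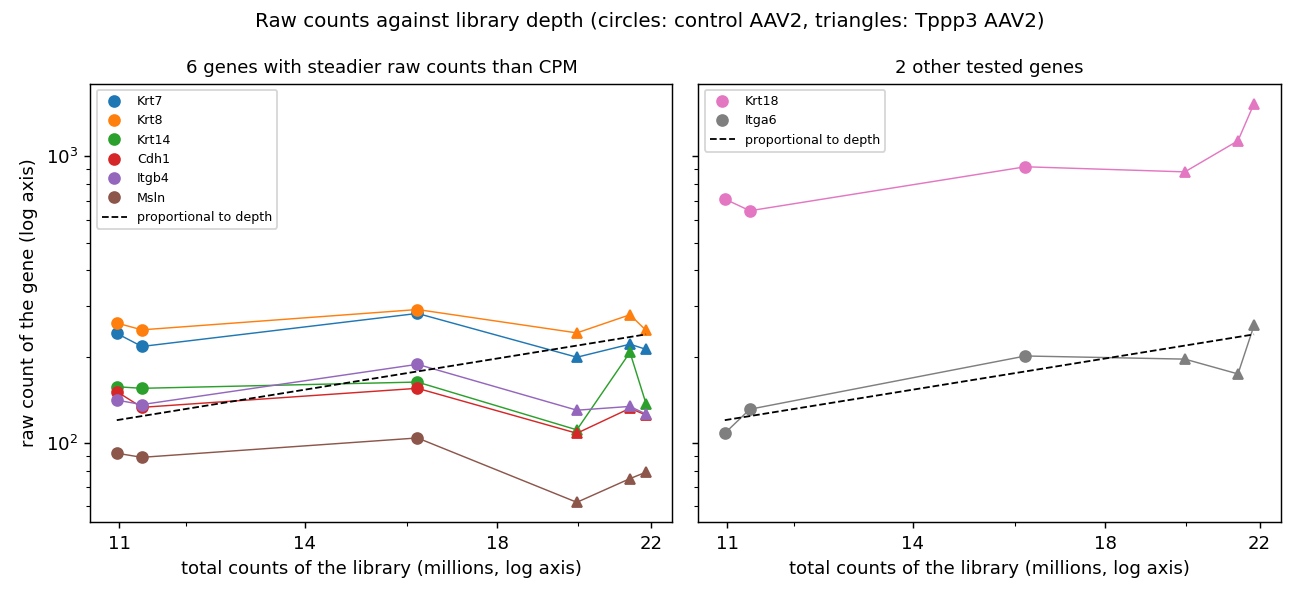
Raw count of each tested gene (vertical, log axis) against the total counts of the library (horizontal, log axis), with circles for control AAV2, triangles for Tppp3 AAV2 and a dashed line for a count that grows in proportion to depth. Mean raw counts of Krt18 and Itga6 are 1.56 and 1.43 times higher in the deeper Tppp3 group and those of the other 6 genes are 0.758 to 0.959 times the control mean, while among the controls the deepest library has the highest raw count of all 8.

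**Figure D4:**
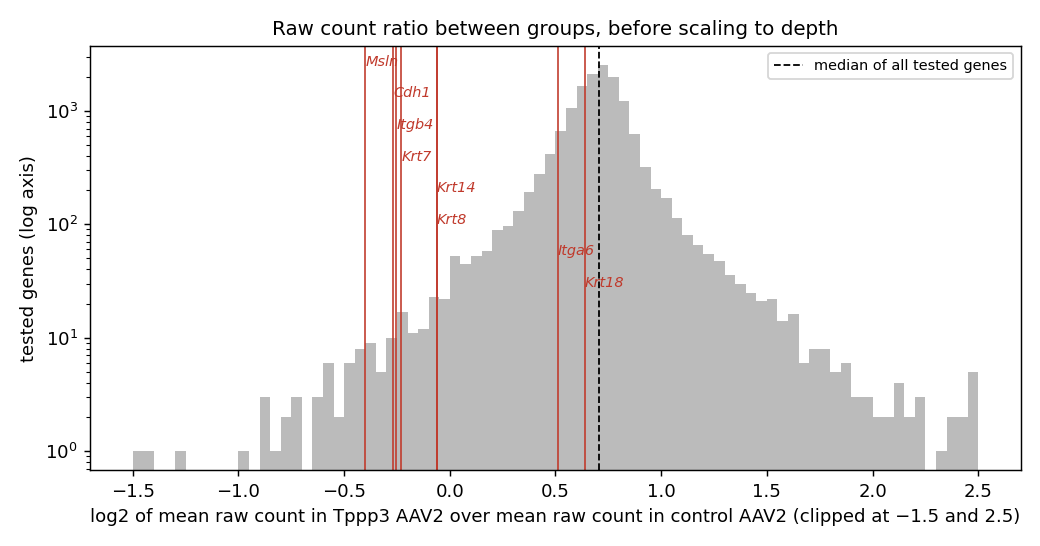
Distribution over the tested genes (vertical, log axis) of the log2 ratio of mean raw counts, Tppp3 AAV2 over control AAV2 (horizontal); red lines are the 8 tested epithelial genes and the dashed line is the median. The ratios of Msln, Cdh1, Itgb4, Krt7, Krt14 and Krt8 lie between 0.758 and 0.959, below the median of 1.63.

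The control libraries also differed in depth among themselves. Control replicate 2 held 1.46 times the mean total of control replicates 1 and 3. In CPM, control replicate 2 was the lowest of the 3 controls in 7 of the 8 members, Itga6 being the exception, against 29.9% of all tested genes. In raw counts, control replicate 2 was the highest of the controls in all 8, with 1.36 times the mean of the other 2 for Itgb4 and Krt18, 1.68 for Itga6, 1.24 for Krt7, 1.15 for Msln, 1.15 for Krt8, 1.09 for Cdh1 and 1.05 for Krt14. Within the controls, raw counts of the 6 genes were highest in the deepest library, by factors below that of the depth itself. The CPM of control replicate 2 relative to the mean of the other 2 was 0.718 for Krt14, 0.750 for Cdh1, 0.787 for Krt8, 0.790 for Msln, 0.849 for Krt7, 0.933 for Itgb4, 0.933 for Krt18 and 1.16 for Itga6. The median was 0.820 over the members and 0.998 over all tested genes. This is 1 library against 2, so no test was made, and it was looked at after the raw counts had been seen. The 6 genes were also grouped by raw counts that varied less than CPM over these same libraries, control replicate 2 among them. Nothing is therefore read from the values of control replicate 2. Within the Tppp3 group the depths differed by a factor of only 1.09.

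Depth and vector group moved together over the 6 libraries. With log2 library total as a covariate in the edgeR fit, an alternative added after seeing the data, the median log2 fold change of the members was -0.47 in place of -0.87. The log2 fold changes were then -0.62 for Krt7, -0.31 for Krt8, -0.25 for Krt14, -0.46 for Cdh1, -0.78 for Itgb4 and -0.72 for Msln, each with an edgeR adjusted p of 0.9999. Because the 2 groups share no depth, their parts cannot be told apart.

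Raw count ratios among the 6 genes ranged more narrowly for some pairs than for others. The raw count ratio of Itgb4 to Krt7 ranged from 0.585 to 0.664 over the 6 libraries, that of Cdh1 to Krt7 from 0.543 to 0.627 and that of Msln to Krt7 from 0.312 to 0.410. The ratio of Krt14 to Krt8 ranged more widely, from 0.459 in Tppp3 replicate 1 to 0.739 in Tppp3 replicate 3. The ratio of Krt7 to Krt8 was higher in every control (0.875, 0.969 and 0.920) than in any Tppp3 library (0.822, 0.858 and 0.789). After each group's mean had been subtracted, log2 CPM of the 6 genes had a median Pearson r of 0.75 over their 15 pairs (range 0.17 to 0.95, n = 6 libraries, which share depth and scaling). The highest was that of Krt7 with Krt8. These 6 were grouped because their raw counts varied less than their CPM, so nothing is read from that median or from the narrow ranges of their raw count ratios. Over the 28 pairs of all tested members the median r was 0.43 (range -0.86 to 0.95). Itga6 ran the other way from the 6 genes, with r from -0.86 (Krt8) to -0.46 (Msln), but had r of 0.23 with Krt18. Krt18 had r of 0.025 with Krt7 and -0.11 with its partner Krt8. The 8 genes outside the list whose within-group profile was most like the mean of the tested members were C87436, Asgr2, Slc25a32, Sntb1, Fgl1, Zfp935, Kcnk10 and Ntn3 (r from 0.99 to 1.00, n = 6 libraries, among 13740 candidates). Their log2 fold changes lay between -0.12 for C87436 and 0.38 for Asgr2, far from those of the 6 genes.

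Related genes were then read from lists, and no listed gene passed the edgeR threshold in either direction. Over all tested genes 49.1% of log2 fold changes were negative, the share to set beside the counts of negative genes below. Of 12 tested genes of the hemidesmosome and laminin-332, 9 had a negative log2 fold change, with a median of -0.045. Lamb3, which encodes a chain of laminin-332, the ligand of the hemidesmosome integrin, stood at -1.09 (edgeR adjusted p = 0.648), whereas Col17a1, a hemidesmosome collagen, stood at 0.14. Raw counts of Lamb3 were 34, 36 and 16 in the controls, against 21, 16 and 28 in the Tppp3 libraries. Of 14 adherens junction genes 6 were negative, with a median of 0.041, and the other classical cadherins did not share the value of Cdh1: Cdh2, the neural cadherin, stood at 0.078 and Cdh5, the endothelial cadherin, at -0.29.

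Desmosome genes had a median of -0.100 over 10 tested members, with 7 negative. Pkp3, a plakophilin of epithelial desmosomes, stood at -1.40 (edgeR adjusted p = 0.639), Dsp, which links desmosomes to keratin, at -0.57 and Perp at -0.50. Pkp4 of the same list stood at 0.17. Tight junction genes had a median of 0.022 over 17 tested members, 8 of them negative. The epithelial claudin genes Cldn3 and Cldn4 stood at -0.91 and -0.96 and Epcam, an epithelial adhesion gene, at -0.78 (edgeR adjusted p = 0.639, 0.639 and 0.648), while Cgn, the gene of cingulin, stood at 0.29. The raw counts of Cldn3 were 58, 45 and 57 in the controls, against 42, 54 and 48 in the Tppp3 libraries, and overlapped between the groups. Not all claudin genes of the list were low. Cldn1 had 43, 9 and 7 raw counts in the controls, against 72, 40 and 131 in the Tppp3 libraries. For Cldn2 the raw counts were 60, 8 and 3, against 151, 68 and 174. Cldn1 and Cldn2 were picked out after their counts were seen.

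Regulators of the epithelial state had a median of -0.29 over 14 tested members, 9 of them negative, and a median of -0.026 without control replicate 1. Rab25, a vesicle-transport gene of epithelia, stood at -2.12, Klf5 at -1.58, the splicing regulator Esrp1 at -0.94 and the protease gene St14 at -0.90. Rab25 had 11, 15 and 12 raw counts in the controls, against 5, 6 and 3 in the Tppp3 libraries, with no overlap (edgeR adjusted p = 0.639), and all 4 were low in count. With log2 library total as a covariate the median of this list was 0.35. In 6 of the 14 regulators raw counts varied less than CPM, as in 4 of 17 tight junction, 3 of 10 desmosome, 2 of 12 hemidesmosome and 0 of 14 adherens junction genes, beside 3.95% of all tested genes (3.01% of those with a mean of at least 1 CPM). Of these 6 regulators, Rab25, Klf5 and Grhl2 stood at only 0.22, 0.40 and 0.65 CPM in the Tppp3 group. The shares beside them are not matched to such low levels. The tested repressors of E-cadherin, Zeb2, Tcf4 and Zeb1, stood at 0.12, 0.091 and 0.014.

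**Figure D5:**
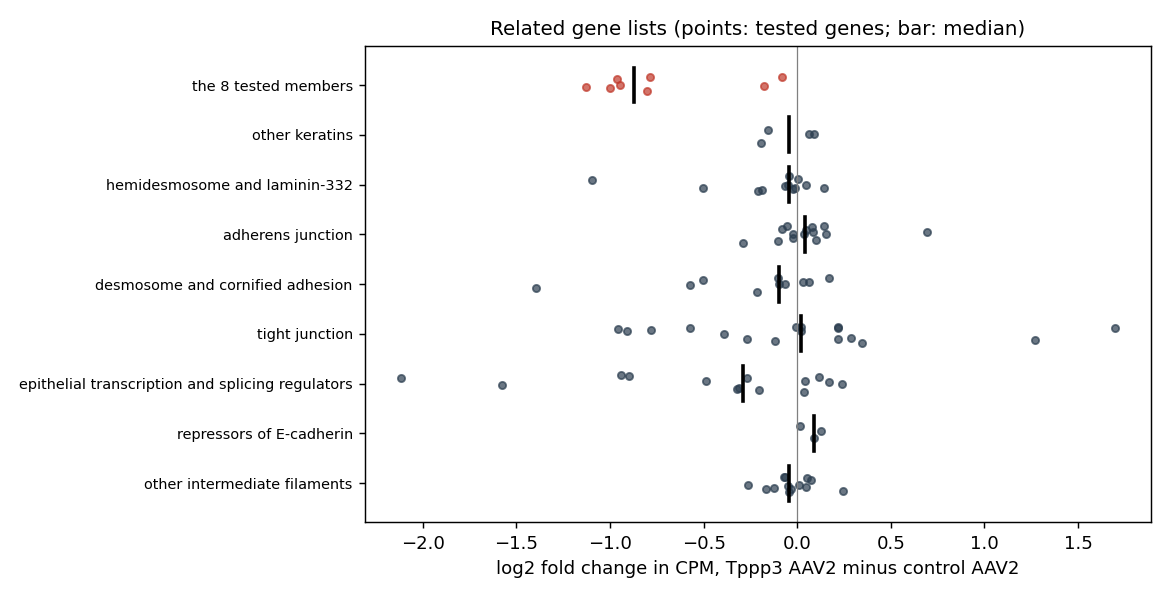
Log2 fold change in CPM (horizontal) of the tested genes of each list (points, spread vertically for legibility; bar, median). The 8 members have a median of -0.87, whereas the related lists have medians between -0.29 and 0.090 and hold single genes as negative as the members, such as Rab25 and Pkp3.

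The other keratins and filaments named here had smaller log2 fold changes, in size, than Krt7, Krt8 or Cdh1. Only 4 of 21 other keratin genes were tested, and Krt10, Krt222, Krt80 and Krt1 stood at -0.19, 0.065, -0.16 and 0.091. Other intermediate filament genes had a median of -0.041 over 13, with the lamin gene Lmna at -0.26 and the neuronal filament gene Ina at 0.075. Krt10 and Lmna were still lower in CPM in every Tppp3 library than in every control library. Each was the only such gene of its list (1 of 4 and 1 of 13 tested), beside 7.02% of all tested genes.

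Markers of other cells that could carry these transcripts were read for each library, and the summed level of every one of these lists overlapped between the groups. Mesothelium and uroplakin genes summed to 438 to 451 CPM in the controls, against 439 to 454 in the Tppp3 libraries, almost all from genes that retina also expresses (Gpm6a and Calb2). Of the mesothelial genes listed, Wt1 had 0, 1 and 0 counts in the controls, against 0 in each Tppp3 library, and Lrrn4 and Muc16 had 0 in all 6 libraries. Msln was thus measured where these were at or near 0, but other genes of the list were detected. Upk3b had 4, 5 and 3 counts in the controls, against 37, 4 and 29 in the Tppp3 libraries. For Bnc1 the counts were 10, 17 and 13, against 14, 20 and 10. Cornea, conjunctiva and lacrimal genes summed to 18.6 to 85.5 CPM in the controls, against 21.1 to 114 in the Tppp3 libraries, with Lcn2 holding most of the list's counts in each library except Tppp3 replicate 3 (186 counts, beside 136 of Sprr1a and 54 of Sfn), and with 5 of 16 genes tested and Krt4 and Sprr2a1 at 0 throughout. Lens genes summed to 30.2 to 34.0 CPM and 29.0 to 53.5 CPM (8 of 17 tested).

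Pigment epithelium and pigment cell genes summed to 273 to 468 CPM in the controls, against 297 to 491 in the Tppp3 libraries, with 16 of 18 tested and 16 positive (0 negative, against 49.1% of all tested genes). Otx2 held 2146, 3202 and 2161 of the list's 5296, 4523 and 3016 counts in control replicates 1, 2 and 3. Single genes varied more than the sum. Rpe65, picked out after its counts were seen, had 220, 20 and 15 counts in the controls, against 280, 47 and 359 in the Tppp3 libraries. The summed pigment genes were high in control replicate 1 and Tppp3 replicates 1 and 3, as were ciliary body and iris genes (253 to 443 CPM and 288 to 478 CPM, 13 of 15 tested). Aqp1 held 1465, 1931 and 1310 of the 5012, 4167 and 2794 counts of the ciliary body and iris list in the controls. Among the controls, the CPM of Krt7, Krt8, Krt14, Cdh1, Itgb4 and Msln in replicate 1 lay between those of the other 2. Among the Tppp3 libraries Krt7, Krt8 and Itgb4 were lowest in replicate 2, where the pigment genes were also lowest. Krt14 (5.64 CPM), Cdh1 (5.49) and Msln (3.15) were instead lowest in Tppp3 replicate 1, where the pigment genes summed highest (491 CPM). Endothelial and mural genes summed to 540 to 566 CPM and 500 to 676 CPM (20 of 20 tested), fibroblast, meninges and sclera genes to 77.8 to 136 CPM and 116 to 145 CPM (12 of 15), Müller glia and astrocyte genes to 5798 to 6170 CPM and 5905 to 7479 CPM (16 of 16), and myeloid genes to 113 to 189 CPM and 97.7 to 218 CPM (10 of 12). In the fibroblast list raw counts varied less than CPM in 5 of 12 genes, beside 3.95% of all tested genes. Foxc1 was among them (log2 fold change -0.80, edgeR adjusted p = 0.648). So was Dcn, at only 0.55 CPM in the Tppp3 group, and the share is not matched to such low levels. Other genes of the fibroblast list went both ways, with Crabp2 at -0.68, Col1a2 at 0.83 and Ogn at 1.15. Whether any of these cells carried the epithelial transcripts was not tested.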

How the data were processed

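Per the labels' protocols, mRNA of whole retina was caught on oligo(dT) beads, and the unstranded libraries were read on 1 lane in pairs of 150 bases. The values deposited by the authors are counts, 1 row for each gene symbol, with no normalization, per the file headers. Build GRCm39 (mm39) is named in the submitters' processing notes; the aligner, the counter and the annotation release were not given in the sources used here. How reads that fit several keratins were counted is therefore unknown.

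Columns were matched to samples by title, which gave replicates 1, 2 and 3 of each group; 1 control sample was not analysed here and 1 unmatched column was not used. The treatment text in the labels gives other group sizes than the sample labels, which were followed.

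Counts were filtered by group, scaled by TMM and tested over the whole table with edgeR's quasi-likelihood F test (robust, two-sided, Benjamini-Hochberg adjustment, threshold 0.05; edgeR 4.0.16, limma 3.58.1, DESeq2 1.42.0, R 4.3.3). The code was checked on counts simulated with the spread that edgeR fitted to these data. Such counts cannot show whether that model holds here. log2 CPM used a prior count of 2. Intervals and the limit of 3 counts cover counting error only where so stated. Members and lists were chosen with earlier results of these data known. Named beside the members were up to 4 tested genes of smallest p per list, the 8 genes of most similar within-group profile (mean of at least 1 CPM, no predicted genes), and the few said to be chosen after their values were seen. Alternatives were DESeq2's size factors and Wald test, upper-quartile scaling, limma's voom, other filters, leaving out each library, a replicate block, thinning, a sex covariate from Y-linked counts and, added later, library total as a covariate.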

Additional observations from a re-analysis of the deposited data

How the results depend on the processing

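The count of members called lower was 1 in the reported test, 1 with DESeq2's size factors, upper-quartile scaling or a mean of at least 1 CPM, 5 with DESeq2's Wald test, 4 with no low-count filter, and 0 with limma's voom, the sex covariate, thinning to equal depth, the replicate block, log2 library total as a covariate, and each library left out (range 0 to 0). Over the whole table, genes called lower numbered 2 in the reported test, 12 with DESeq2's Wald test, 6 with no low-count filter, 1 with the replicate block, 1 after thinning, 0 with voom, 0 with the sex covariate, 0 with library total as a covariate, and 0 to 1 with single libraries left out. Genes called higher numbered 0 in the reported test, 2 with DESeq2's Wald test, 2 with library total as a covariate, and 0 to 2 with single libraries left out. The causes were not tested.

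The median log2 fold change of the members lay between -0.98 and -0.79 when each library was dropped in turn, and was -0.47 with library total as a covariate. Between 6 and 7 members were lower without overlap under the 9 alternatives where this could be counted. Krt18 changed sign to 0.048 without Tppp3 replicate 1; no other member changed sign under any of the 16 alternatives. Same-numbered libraries did not deviate together (correlations -0.029, 0.051 and -0.26 for replicates 1, 2 and 3), and with the replicate block the edgeR adjusted p of Krt7 was 0.0893 with a log2 fold change of -0.95. Genes at the level of Krt5 and Krt19 lay below what this depth can compare.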
